A study of Mus musculus with 17 samples.

Results

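The genes described here are 38 mouse genes of DNA damage signalling and repair, taken as a list by name: 8 for damage sensing and checkpoint control, 7 for homologous recombination and the Fanconi anaemia pathway, 5 for non-homologous end joining, 8 for base excision and single-strand break repair, 8 for nucleotide excision repair and 2 for mismatch repair. A probe set annotated to that symbol alone was found for 37 of them (Xrcc2 was not matched). Where a gene had several probe sets, the one of highest mean level was used, and 31 of the 37 were bright enough to be tested, among 12696 tested genes of 18193 in all. The blood came from 17 mice, all females of the inbred strain C57BL/6JJcl at 8 weeks of age, killed 24 h after exposure of the whole body to X-rays. There were 5 control mice at 0 Gy and 4 mice at each of 0.5, 1.0 and 3.0 Gy, with 1 Affymetrix array per mouse, and the labels call them biological replicates. No mouse carried a transgene or received another agent, as far as the labels say. The design asks how repair gene transcripts in blood stand 1 day after increasing doses.

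X-rays break both strands of DNA, break single strands and damage bases, and a different set of enzymes deals with each lesion. The MRN complex (MRE11A, RAD50, NBN) and the kinases ATM and ATR sense breaks and stalled forks and signal through CHEK2 and CHEK1. Broken ends are rejoined directly by non-homologous end joining or copied from the sister chromatid by homologous recombination. Small base lesions and single-strand breaks go through base excision repair, bulky lesions through nucleotide excision repair, and replication errors through mismatch repair. Circulating blood is mostly made of cells that do not divide, and its lymphocytes are among the most radiosensitive cells of the body.

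Promoter sequence is shown for the genes whose level differed most clearly over the 4 dose groups, those with the smallest p in a test of any dose effect: Apex1, Ddb2, Chek2 and Msh6. Entries were found for Apex1, Chek2 and Msh6 in the RefSeq promoter table (build GRCm38.p6), which held 29 of the 38 genes. Capitals mark matches to CCAAT (the CCAAT box), GGGCGG (the GC box) and CACGTG (the E-box), read on both strands, so that ATTGG and CCGCCC are also capitals. Bases inside the bounds of a gene were left out, except in the 30 bases shown for Chek2. The stretches are chr14:50924894-50924948 for Apex1 (the 55 bases before the start), chr5:110839944-110839973 for Chek2 (30 bases that end 10 bases before the start) and chr17:87974800-87975049 for Msh6 (the 250 bases before the start), all on the plus strand.
Apex1: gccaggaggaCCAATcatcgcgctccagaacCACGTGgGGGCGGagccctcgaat
Chek2: ggaaggctttttgATTGGttgagggtggag
Msh6: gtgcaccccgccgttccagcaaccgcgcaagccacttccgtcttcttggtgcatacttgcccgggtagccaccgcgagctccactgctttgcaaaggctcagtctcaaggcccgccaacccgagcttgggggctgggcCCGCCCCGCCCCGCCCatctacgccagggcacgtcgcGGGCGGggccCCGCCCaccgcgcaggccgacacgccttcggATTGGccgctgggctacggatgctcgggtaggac
Over the 250 bases before the start, Apex1 had 1 match to each of the 3 motifs, Chek2 had 2 matches to CCAAT only, and Msh6 had 1 match to CCAAT and 5 to GGGCGG, which are counted where they overlap. Among 32851 promoter windows of the same length, 33.8% held CCAAT, 32.7% held GGGCGG and 6.02% held CACGTG. These matches describe letters and do not show that a factor binds there.

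The values are deposited log2 RMA values (robust multi-array average), on which a difference of 1 is a doubling, and every value below is a log2 level or a difference of log2 levels. A difference was called where its adjusted p was under 0.05 in limma with Benjamini-Hochberg adjustment over all 12696 genes. Array medians lay between 3.47 and 3.57, and arrays of 1 group correlated at 0.973 to 0.993. The labelled tissue had strong signals of blood markers, for example a control mean of 12.3 for the platelet gene Pf4 and 13.9 for the red cell gene Alas2. The mean of the control probe sets for 18S ribosomal RNA was 10.5 ± 0.49 (SD, n = 5) in unexposed mice, and 12.7 ± 0.77, 13.3 ± 0.28 and 10.7 ± 0.14 (n = 4 each) with increasing dose. It was high at the lower doses only, and its part in the results was not tested beyond the fit with it as a covariate that is given beside them. At 3.0 Gy, 40.6% of all called genes were higher, a share that became 52.6% when the values were quantile normalized again, which moved the median difference of all genes from 0.04 to 0.12.

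At 3.0 Gy, 14 of the 31 tested repair genes fell and 2 rose, where 49.1% of all tested genes were called (29.2% lower and 20% higher). The total of 16 calls is near that background, and the listed genes lay on the lower side: 23 of the 31 differences were below 0 (74.2%), against 46.5% over all genes. Their median difference was -0.33, against 0.04 over all genes, and the median size of a difference was 0.37 against 0.32. The genes that fell were Atr, Trp53bp1, Rad50, Xrcc6, Prkdc, Parp1, Apex1, Polb, Ddb2, Xpa, Ercc1, Ercc3, Msh6 and Pms2, and those that rose were Chek2 and Brca1. Arrays at 3.0 Gy lay all below the controls for 10 of the 31 (background 22.9%) and all above for Chek2 alone (background 14.2%). Because Tdp1 passed the filter on dim genes through 4 control arrays only, and Xrcc6 and Msh6 with no 3.0 Gy array, the counts are also given with no filter: 14 of 37 fell and 4 rose, against 39.2% called of 18193 genes (21% lower and 18.3% higher).

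At 0.5 Gy, Chek2 rose and Ddb2 and Xpa fell, 3 of 31 where 10.2% of all genes were called (5.24% higher and 5% lower). At 1.0 Gy, Chek2 rose and Xrcc3, Xrcc6, Tdp1, Ddb2 and Xpa fell, 6 of 31 against a background of 17.3% (8.8% higher and 8.49% lower). Tdp1 is counted there although it passed the filter through control arrays only. With no filter 5 of 37 genes fell and 1 rose at 1.0 Gy, against 11.9% called (6.08% higher and 5.8% lower). The medians over the 31 genes were -0.08 and -0.07, against -0.02 and -0.04 over all genes. Neither count stands far from its background. With the 18S level as a covariate limma called no repair gene at 0.5 or 1.0 Gy (2 and 1 were lower at an unadjusted p under 0.05). At 3.0 Gy 14 fell and 2 rose in that fit, where it called 49.4% of all genes, so this count is near its background. The 18S level differs strongly between these groups, so that fit is less precise at the lower doses: the median SE over all genes went from 0.138 to 0.292 at 0.5 Gy and 0.355 at 1.0 Gy, and it called 4.39% and 4.77% of all genes. In that fit Xpa differed by -0.77 and -0.75 at 0.5 and 1.0 Gy (adjusted p = 0.18 and 0.322). Ddb2 differed by -0.60 and -0.62 (adjusted p = 0.524 and 0.617) and Chek2 by 0.31 and 0.48 (adjusted p = 0.733 and 0.645). Whether these differ from the values without the covariate was not tested. All 3 comparisons use the same 5 control mice.

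**Figure D1:**
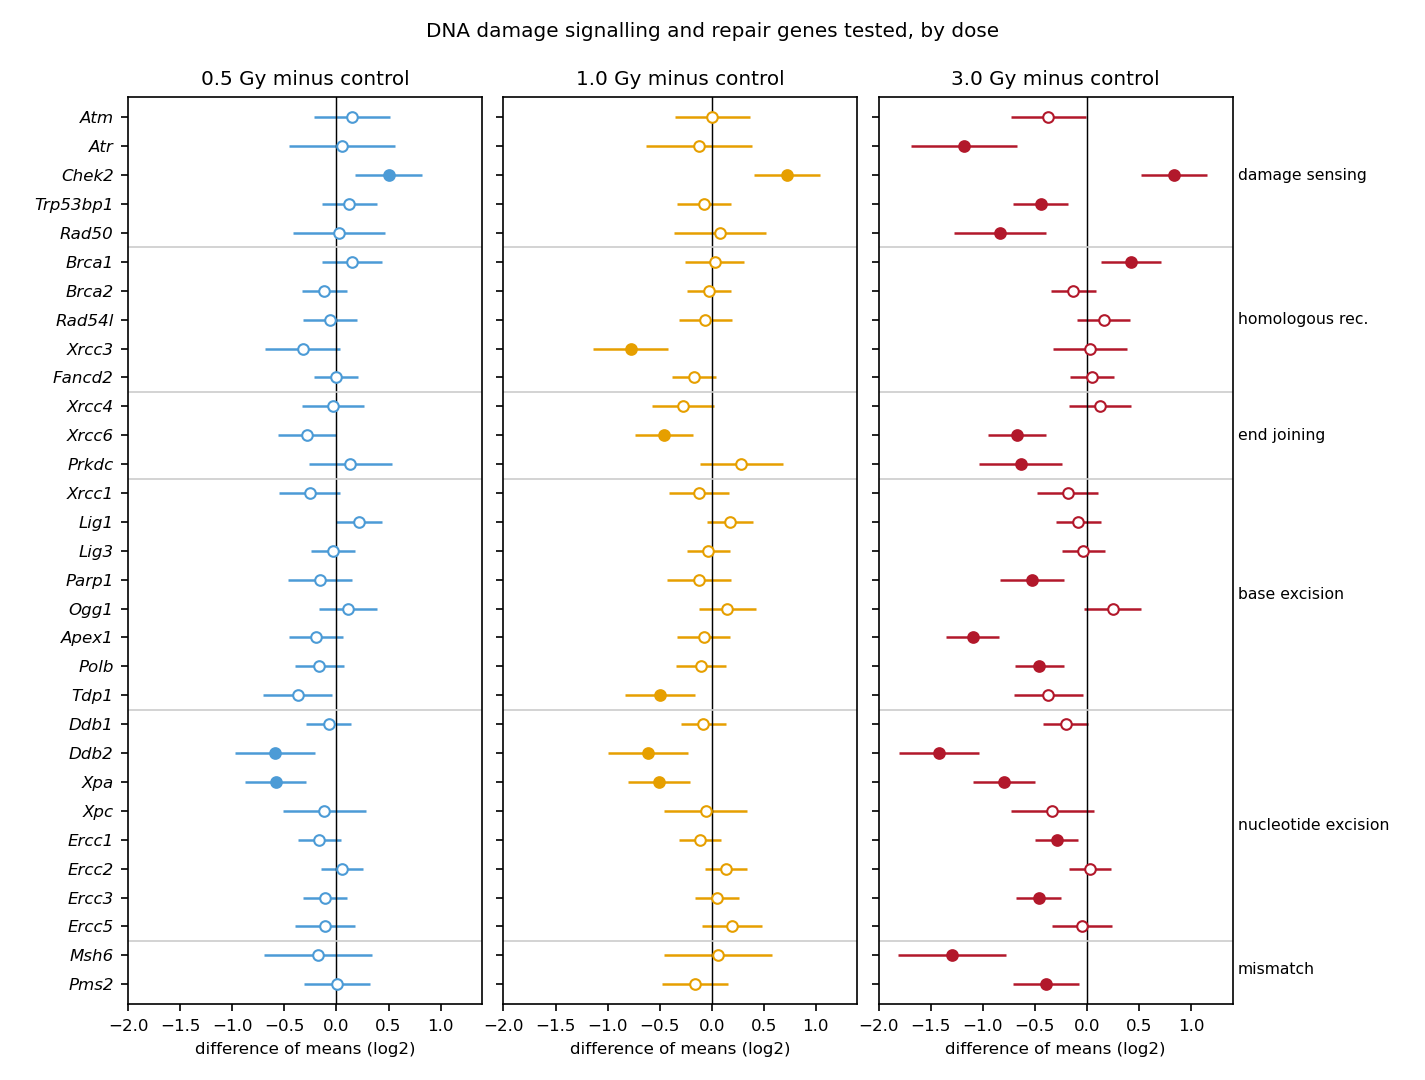
Difference of mean log2 level from the control mice for the 31 tested repair genes (rows, grouped by pathway) at each dose (panels), with bars for the 95% confidence interval and filled symbols for calls at an adjusted p under 0.05. Most filled symbols lie left of 0 at 3.0 Gy, where 14 genes fell and 2 rose, and few symbols are filled at the lower doses.

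Among the damage sensors and checkpoint kinases, Atr, Trp53bp1 and Rad50 fell at 3.0 Gy only, and Chek2 rose at all 3 doses. In bulk blood, fewer cells of a type and less RNA per cell cannot be told apart. Atr encodes the kinase that responds to single-stranded DNA at stalled forks. Its level was 4.76, 4.10, 4.19, 4.41 and 3.74 in the 5 control mice and 2.53, 3.56, 2.84 and 3.31 at 3.0 Gy. The mice given 0.5 Gy had 3.95, 4.95, 4.10 and 4.16, and those given 1.0 Gy had 3.86, 4.58, 3.77 and 4.26. All mice at 3.0 Gy were below every other mouse, and the lower doses overlapped the controls. The difference at 3.0 Gy was -1.18 ± 0.24 (SE), a 2.27-fold lower level, with an adjusted p of 0.000526. Only 1 of the 4 arrays at 3.0 Gy was above its array's median, the limit used for dim genes.

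Chek2 encodes the checkpoint kinase that ATM activates and that phosphorylates p53. It read 4.58, 4.40, 4.88, 4.30 and 4.88 in controls, 5.18, 4.86, 4.92 and 5.46 after 0.5 Gy, 5.37, 5.18, 5.48 and 5.29 after 1.0 Gy and 5.52, 5.18, 5.74 and 5.32 after 3.0 Gy. Every mouse at 1.0 and 3.0 Gy was above every control, and 1 mouse at 0.5 Gy was within the control range. The rises were 0.50 ± 0.15, 0.72 ± 0.15 and 0.83 ± 0.15, with adjusted p of 0.0411, 0.00199 and 0.000158, and the last is a 1.78-fold higher level. At 0.5 Gy the call ended on leaving out any of 8 arrays (control replicates 1, 2 and 4, 0.5 Gy replicates 1, 3 and 4, 1.0 Gy replicate 4 or 3.0 Gy replicate 1), with adjusted p of up to 0.171. Across all genes, 4.77% were higher than control at every dose. With the 18S level as a covariate the differences were 0.31 ± 0.33, 0.48 ± 0.40 and 0.82 ± 0.16 over the 3 doses, and only the last was called (adjusted p = 0.733, 0.645 and 0.000274).

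Rad50, a coiled-coil subunit of the MRN complex that tethers DNA ends, read 4.86, 4.64, 4.32, 4.39 and 4.02 in the controls and 3.04, 4.05, 3.48 and 3.88 at 3.0 Gy. One irradiated mouse was just above the lowest control, and the others were below all controls. Its difference was -0.84 ± 0.21 (adjusted p = 0.00303). At 0.5 and 1.0 Gy the levels ran from 4.24 to 5.04 and from 4.29 to 4.79, within or near the control range. The mean of both Rad50 probe sets gave -0.32 with an adjusted p of 0.0682, so this call depends on the probe set used.

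Trp53bp1 encodes 53BP1, the chromatin protein that favours end joining at breaks. It read 4.96, 4.89, 5.18, 4.99 and 5.20 in controls and 4.61, 4.47, 4.53 and 4.80 at 3.0 Gy. The groups did not overlap, and the difference was -0.44 ± 0.13 (adjusted p = 0.00659). At 0.5 Gy the 4 mice lay between 5.05 and 5.31 and at 1.0 Gy between 4.63 and 5.22. A dimmer second probe set of Trp53bp1 gave 0.15 at 3.0 Gy, in the opposite direction and not called (adjusted p = 0.288).

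Atm, the kinase at the head of the double-strand break response, was not called at any dose by its brighter probe set. Its levels ran from 4.57 to 5.08 in controls and read 4.37, 4.63, 4.77 and 3.75 at 3.0 Gy, where 1 mouse was well below the others. The difference was -0.37 ± 0.17 (adjusted p = 0.0819). The other Atm probe set differed by -1.36 ± 0.21 (adjusted p = 3.49e-05 among all probe sets). The brighter set was chosen by a narrow margin, a mean of 4.70 against 4.65, and leaving out 3.0 Gy replicate 1 or 3 turned the choice to the other set, with differences of -1.35 and -1.26. Chek1, Nbn and Mre11a were too dim to be tested, and every array read them between 2.66 and 3.51. In a fit without the filter, Chek1, which encodes the kinase downstream of ATR, was 0.30 higher at 3.0 Gy (adjusted p = 0.0301), with all 4 mice above all controls. Nbn and Mre11a differed there by -0.13 and -0.07 and were not called.

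In homologous recombination, 1 of the 5 tested genes rose at 3.0 Gy and none fell in limma (none also at an unadjusted p under 0.05), and the median difference was 0.05. Over all genes 20% rose and the median was 0.04, so this count is at its background. Brca1, which directs breaks to resection and recombination, read 3.94, 4.20, 4.27, 4.18 and 3.79 in controls and 4.67, 4.47, 4.64 and 4.21 at 3.0 Gy. The lowest irradiated mouse lay inside the control range and the other 3 lay above it. The rise was 0.42 ± 0.14 (adjusted p = 0.0147). It was not called without 3.0 Gy replicate 1 (adjusted p = 0.0536). At 0.5 and 1.0 Gy the differences of Brca1 were 0.15 and 0.03.

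Xrcc3, a recombination protein that helps strand exchange, fell at 1.0 Gy and was near the control mean at 3.0 Gy. Its levels were 4.48, 4.40, 4.42, 4.34 and 4.83 in controls, 3.99, 3.94, 4.44 and 4.30 after 0.5 Gy, 3.25, 3.52, 4.20 and 3.88 after 1.0 Gy and 4.56, 4.78, 4.26 and 4.51 after 3.0 Gy. All mice at 1.0 Gy were below all controls and below all mice at 3.0 Gy. The difference from control was -0.78 ± 0.17 at 1.0 Gy (adjusted p = 0.00282) and 0.03 ± 0.17 at 3.0 Gy (adjusted p = 0.893, 95% interval -0.33 to 0.39). Between 3.0 and 1.0 Gy the difference was 0.81 ± 0.18 (adjusted p = 0.00209). This pattern runs opposite to the 18S level, which was highest at 1.0 Gy and near the control at 3.0 Gy, and with 18S as a covariate the difference at 1.0 Gy was larger and less precise, -1.35 ± 0.43, and not called (adjusted p = 0.083). The probe set is of a type that can hybridise to related transcripts. A second Xrcc3 probe set, too dim to be tested, differed by 0.02, -0.01 and 0.09 over the 3 doses.

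The remaining recombination genes were not called at any dose. Brca2, a mediator of homologous recombination, differed at 3.0 Gy by -0.13 (95% interval -0.35 to 0.08), Rad54l, a motor of strand exchange, by 0.16 (-0.10 to 0.42) and Fancd2, the ubiquitinated hub of the Fanconi pathway, by 0.05 (-0.16 to 0.26). Fancd2 read 4.25 to 4.37 in controls and 4.24 to 4.42 at 3.0 Gy. Rad52, a strand annealing protein, was above the median of its array in 3 arrays only, all at 3.0 Gy, and was not tested. Those mice read 3.82, 3.21, 4.60 and 3.72, against 2.96 to 3.22 in controls and 2.65 to 3.08 at the lower doses. The lowest of them was inside the control range, and the fit without the filter gave 0.74 ± 0.18 (adjusted p = 0.00297).

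In non-homologous end joining, Xrcc6 and Prkdc fell and Xrcc4 did not pass the test at 3.0 Gy. Xrcc6 encodes Ku70, which with Ku80 forms the ring that caps broken ends. It read 4.10, 3.75, 3.66, 3.76 and 3.78 in controls, 3.53, 3.53, 3.45 and 3.60 after 0.5 Gy, 3.53, 3.62, 3.22 and 3.05 after 1.0 Gy and 3.41, 3.25, 2.88 and 3.02 after 3.0 Gy. Every irradiated mouse was below every control. The differences were -0.28 at 0.5 Gy (not called, adjusted p = 0.223), -0.46 ± 0.13 at 1.0 Gy (adjusted p = 0.0223) and -0.67 ± 0.13 at 3.0 Gy (adjusted p = 0.000363). At 1.0 Gy the call ended without control replicate 1, 1.0 Gy replicate 3 or 1.0 Gy replicate 4, with adjusted p of up to 0.103. No array at 3.0 Gy had Xrcc6 above its median. A second Xrcc6 probe set, too dim to be tested, differed by 0.31 at 3.0 Gy, in the opposite direction.

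Prkdc encodes the catalytic subunit of DNA-PK, which Ku recruits to ends. Its levels were 4.95, 4.76, 4.70, 5.11 and 4.40 in controls, 5.52, 5.29, 4.69 and 4.79 at 1.0 Gy and 3.79, 4.57, 4.18 and 4.06 at 3.0 Gy. One mouse at 3.0 Gy was above the lowest control and the other 3 were below all controls. The difference was -0.64 ± 0.19 (adjusted p = 0.00963) against controls and -0.92 ± 0.20 (adjusted p = 0.0018) against 1.0 Gy, where no values overlapped. Xrcc4, the scaffold of ligase IV, was 0.13 higher at 3.0 Gy than in controls and was not called (adjusted p = 0.461). It was called against 1.0 Gy, at 0.41 (adjusted p = 0.0396), where 1.0 Gy replicate 1 was low at 5.55 beside 6.00 to 6.47 in the others. Xrcc5 and Lig4, for Ku80 and ligase IV, were too dim to test, and without the filter they differed at 3.0 Gy by -0.44 (adjusted p = 0.0596) and -0.12.

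In base excision and single-strand break repair, Apex1, Parp1 and Polb fell at 3.0 Gy and the other 5 genes were not called there. Apex1 encodes the endonuclease that cuts DNA at abasic sites, and its promoter is the one above with a match to all 3 motifs. It read 7.45, 7.19, 7.03, 7.26 and 7.03 in controls, 7.0, 7.22, 6.80 and 6.96 after 0.5 Gy, 7.34, 7.26, 6.91 and 6.95 after 1.0 Gy and 6.17, 6.18, 6.08 and 5.95 after 3.0 Gy. The mice at 3.0 Gy were tightly grouped and far below all others, and the lower doses overlapped the controls. The fall at 3.0 Gy was -1.10 ± 0.12, a 2.14-fold lower level with an adjusted p of 7.35e-07, the smallest of the list. The differences at 0.5 and 1.0 Gy were -0.20 and -0.08 and were not called. All 3 probe sets of Apex1 were lower at 3.0 Gy, by -1.10, -0.42 and -1.35.

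Parp1 encodes the enzyme that marks single-strand breaks with poly(ADP-ribose). By the brightest probe set it read 6.79, 6.47, 6.33, 6.37 and 6.01 in controls and 5.89, 5.89, 6.02 and 5.65 at 3.0 Gy. The highest of the irradiated mice was just above the lowest control and the others were below all controls. The difference was -0.53 ± 0.15 (adjusted p = 0.00567). The size depends on the probe set: others gave -1.41, -2.86 ± 0.21 (adjusted p = 1.91e-08 among all probe sets) and, for the dimmest, -0.19 (adjusted p = 0.294). The set with -2.86 had mean levels of 6.00, 5.74, 5.49 and 3.14 from the controls to the highest dose.

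Polb, the polymerase that fills the short gap, read 6.22, 5.77, 5.99, 6.25 and 6.09 in controls and 5.36, 5.71, 5.68 and 5.69 at 3.0 Gy. The groups did not overlap, and the difference was -0.46 ± 0.11 (adjusted p = 0.00254). Its 3 tested probe sets gave -0.46, -0.37 and -0.62, all called. Repeated quantile normalization ended the call, with a difference of -0.25 and an adjusted p of 0.0606. Tdp1, which removes trapped topoisomerase I from DNA, read 3.71, 3.67, 3.95, 3.54 and 3.26 in controls, 3.22, 3.37, 3.19 and 3.23 after 0.5 Gy, 3.21, 3.23, 2.86 and 3.23 after 1.0 Gy and 3.37, 3.52, 3.46 and 2.68 after 3.0 Gy. It was below all controls at 1.0 Gy, by -0.50 ± 0.16 (adjusted p = 0.0362), and at 3.0 Gy the difference was -0.37 (adjusted p = 0.0617). Leaving out any 1 of the 4 arrays at 1.0 Gy ended that call (adjusted p of up to 0.107), and without control replicate 5 or 3.0 Gy replicate 2 the gene was called at 3.0 Gy, at -0.46 each. Tdp1 was above its array's median in 4 control arrays and in no irradiated one.

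The ligases and scaffolds of this pathway differed little. Lig3, the ligase that seals single-strand breaks with XRCC1, differed by -0.03 at each dose, with a 95% interval at 3.0 Gy of -0.24 to 0.18. Xrcc1 differed by -0.26, -0.12 and -0.18 over the 3 doses, and Lig1, the replicative ligase, by 0.22, 0.18 and -0.08, and none was called against control. Ogg1, the glycosylase for oxidised guanine, was 0.25 higher at 3.0 Gy and not called (adjusted p = 0.125, 95% interval -0.03 to 0.52).

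In nucleotide excision repair, Ddb2, Xpa, Ercc1 and Ercc3 fell at 3.0 Gy, and Ddb2 and Xpa fell at all 3 doses. Ddb2 encodes the lesion sensor that binds with DDB1 and is known as a p53 target in human cells. Controls read 5.87, 5.22, 5.65, 5.81 and 5.38, the mice given 0.5 Gy 4.95, 5.29, 5.02 and 4.72, those given 1.0 Gy 5.48, 4.91, 4.59 and 4.91, and those given 3.0 Gy 4.60, 4.17, 4.05 and 3.85. At each lower dose 1 mouse was inside the control range, and at 3.0 Gy all were below every control. The differences were -0.59 ± 0.18 (adjusted p = 0.0476), -0.61 ± 0.18 (adjusted p = 0.0267) and -1.42 ± 0.18 (adjusted p = 4.07e-06), the last a 2.67-fold lower level. The direction is the reverse of that of the p53 target list described further on. A second, dimmer Ddb2 probe set gave -0.73 at 3.0 Gy, also called. The call at 0.5 Gy ended without any 1 of 9 arrays (control replicates 1, 3 and 4, 0.5 Gy replicates 1, 3 and 4, 1.0 Gy replicates 2 and 4 or 3.0 Gy replicate 3), with adjusted p of up to 0.163. The call at 1.0 Gy ended on leaving out any of 6 arrays (control replicates 1, 3 and 4 and 1.0 Gy replicates 2, 3 and 4), with adjusted p of up to 0.0906.

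Xpa, the scaffold that verifies damage, read 4.89, 4.46, 4.20, 4.72 and 4.46 in controls, 3.91, 4.07, 4.04 and 3.83 after 0.5 Gy, 3.69, 4.09, 4.07 and 4.31 after 1.0 Gy and 3.82, 3.85, 3.82 and 3.52 after 3.0 Gy. Mice at 0.5 and 3.0 Gy were all below the controls, and 1 mouse at 1.0 Gy overlapped them. The differences were -0.58 ± 0.14 (adjusted p = 0.0108), -0.51 ± 0.14 (adjusted p = 0.0162) and -0.80 ± 0.14 (adjusted p = 0.000116). Without 1.0 Gy replicate 1 the call at 1.0 Gy ended (adjusted p = 0.0782). The other Xpa probe sets were too dim to be tested. One differed by -0.10, -0.15 and -0.08 over the 3 doses and another by -0.0025, 0.11 and -0.17. Over all genes, 3.81% were lower than control at every dose.

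Ercc3 encodes XPB, a helicase of the TFIIH complex that opens DNA around the lesion. It read 4.26, 4.46, 4.35, 4.40 and 4.34 in controls and 3.98, 4.02, 3.88 and 3.73 at 3.0 Gy, with no overlap. The difference was -0.46 ± 0.10 (adjusted p = 0.000997), while 0.5 and 1.0 Gy gave -0.11 and 0.05. Ercc1, a subunit of the nuclease that cuts on one side of the lesion, read 7.10, 7.07, 7.03, 7.17 and 6.96 in controls and 6.86, 6.89, 6.62 and 6.72 at 3.0 Gy. These groups did not overlap either, but the difference was small, -0.29 ± 0.10 (adjusted p = 0.0184). It was not called without 3.0 Gy replicate 3 (adjusted p = 0.0702) or with the mean of its probe sets, and 1 of the 3 tested probe sets gave -0.0046.

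The others of this pathway were not called. Xpc, which recognises damage in global genome repair, differed by -0.33 at 3.0 Gy (adjusted p = 0.153) and Ddb1 by -0.20 (adjusted p = 0.11). Ercc2, the other TFIIH helicase, differed by 0.03 (95% interval -0.18 to 0.23) and Ercc5, the second nuclease, by -0.05 (-0.34 to 0.24).

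Of the mismatch repair genes, Msh6 and Pms2 fell at 3.0 Gy. Msh6, which helps recognise mismatches and whose promoter stretch above holds 5 GC box matches, read 4.11, 3.17, 3.26, 3.35 and 2.83 in controls, 3.08, 3.73, 2.77 and 3.10 after 0.5 Gy, 3.65, 3.86, 2.69 and 3.40 after 1.0 Gy and 2.14, 2.34, 1.78 and 1.92 after 3.0 Gy. All mice at 3.0 Gy were below all others, and the lower doses overlapped the controls. The difference was -1.29 ± 0.25, a 2.45-fold lower level (adjusted p = 0.000255). Msh6 was above its array's median in 4 of the 17 arrays, none at 3.0 Gy, and is a dim probe set throughout. Pms2, an endonuclease subunit of mismatch repair, read 5.30, 5.44, 5.26, 5.75 and 5.14 in controls and 5.13, 5.30, 4.73 and 4.77 at 3.0 Gy. These groups overlapped, and the difference was -0.39 ± 0.15 (adjusted p = 0.0374). The call was lost on leaving out any of 4 arrays (control replicates 2 and 4, 3.0 Gy replicates 3 and 4), with adjusted p of up to 0.126, and a second probe set of Pms2 gave 0.18 in the opposite direction (adjusted p = 0.253).

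**Figure D2:**
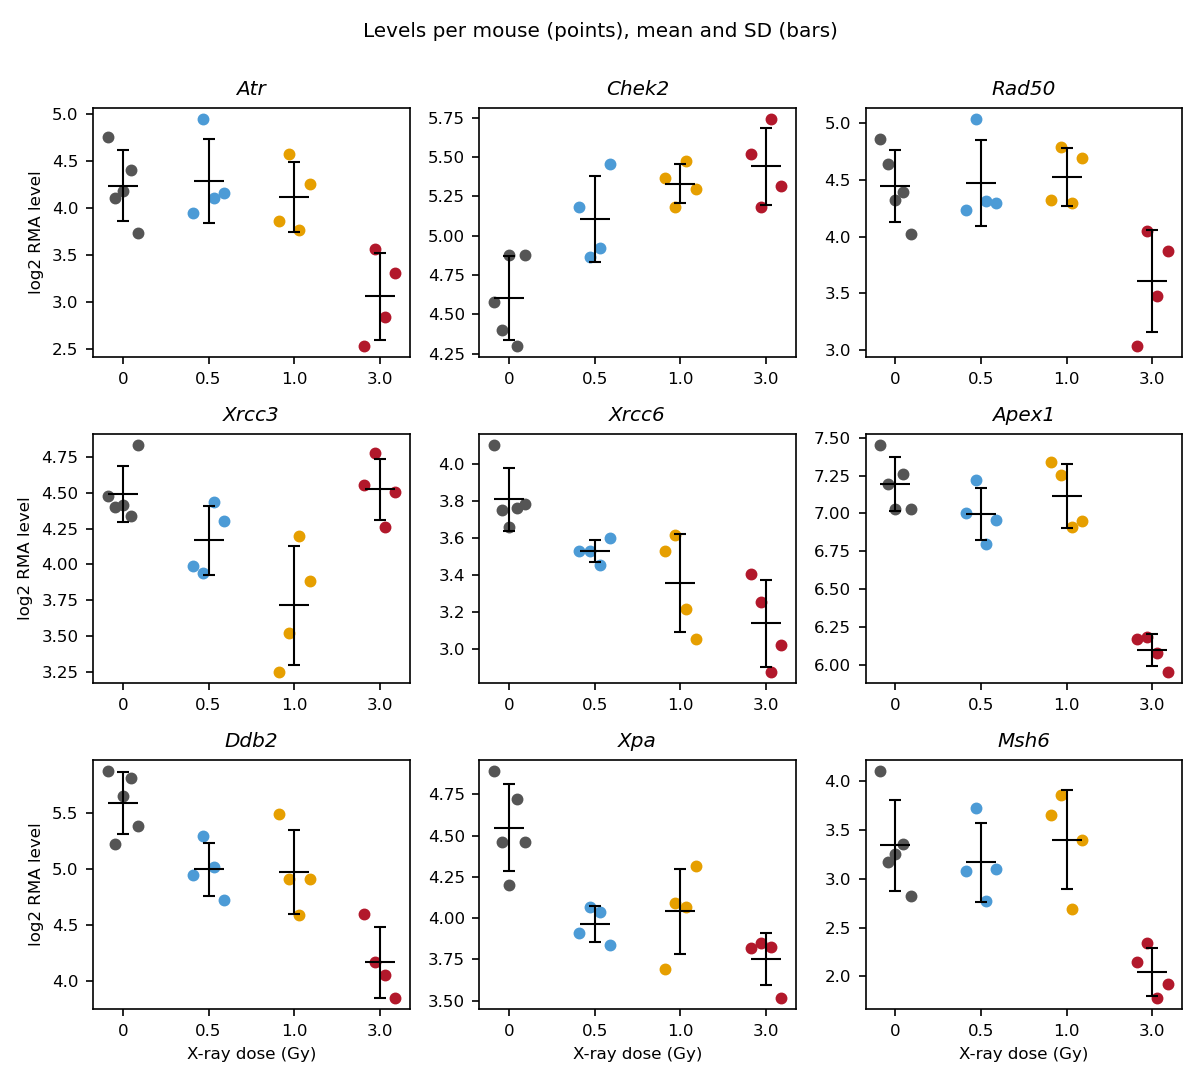
Log2 level in each mouse (points) against X-ray dose for 9 repair genes, with the group mean and SD (horizontal and vertical bars); axes differ between panels and do not start at 0. Atr, Apex1 and Msh6 step down at 3.0 Gy, Ddb2 is lower at every dose, Xrcc6 is called lower at 1.0 and 3.0 Gy, Chek2 is higher, and Xrcc3 is low at 1.0 Gy and close to the control mean at 3.0 Gy.

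The calls against control numbered 3, 6 and 16 of 31 over the 3 doses, where 10.2%, 17.3% and 49.1% of all genes were called. No repair gene differed between 1.0 and 0.5 Gy, where 0.0158% of all genes (2 genes) were called in limma. Xrcc3 alone was below an unadjusted p of 0.05 there, with a difference of -0.45. Between 3.0 and 1.0 Gy, 10 fell and 3 rose (background 38.6%, with 22.7% lower and 15.9% higher), and between 3.0 and 0.5 Gy 11 fell (background 33.8%, with 20.9% lower). Apex1 (-1.02 against 1.0 Gy, -0.90 against 0.5 Gy), Msh6 (-1.35 and -1.12), Atr (-1.06 and -1.23), Rad50 (-0.91 and -0.86), Ddb2 (-0.81 and -0.83), Prkdc (-0.92 and -0.77), Trp53bp1 (-0.37 and -0.57) and Ercc3 (-0.51 and -0.35) were called in both comparisons. Chek2, Xpa, Ercc1 and Pms2 were called in neither, at 0.11, -0.29, -0.18 and -0.24 against 1.0 Gy. The step from a lower dose to 3.0 Gy was therefore not shown for them. Lig1 was called against 0.5 Gy alone, at -0.30 (adjusted p = 0.0432). The count between 3.0 and 1.0 Gy, 13 in all, was 7 when 1.0 Gy replicate 2 was left out. That between 3.0 and 0.5 Gy was 7 when 0.5 Gy replicate 2 was left out. Both were 0 with the 18S level as a covariate (4 and 6 at an unadjusted p under 0.05), a fit that called 0% and 0.748% of all genes there.

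Of the 31 genes, 12 were called at 3.0 Gy and at neither lower dose, as were 4399 of all 12696 genes. A test of any dose effect called 14 of the 31, against 48.2% of all genes. A straight line over dose fell for 15 and rose for 2, against 47.4% of genes called in all (27.5% falling, 19.9% rising). The falling genes were the 14 that fell at 3.0 Gy and Atm (-0.15 ± 0.06 per Gy, adjusted p = 0.0376). The steepest lines were those of Msh6 (-0.44 per Gy), Ddb2 (-0.44 per Gy) and Atr (-0.42 per Gy), although Atr and Msh6 were called at the highest dose only.

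Agreement between probe sets was mixed. The genes of the list had 87 probe sets of a single symbol, and 48 were bright enough to test. At 3.0 Gy, 23 fell and 2 rose, where 48.4% of all such probe sets were called; at 0.5 Gy 3 fell and 1 rose (background 10%), and at 1.0 Gy 6 fell and 1 rose (17.5%). Apex1, Polb and Ddb2 were lower by every tested set, Parp1 by 3 of 4 and Ercc1 by 2 of 3. Trp53bp1 and Pms2 had a second set of opposite sign that was not called, and Lig3, Ercc2 and Rad54l were called by none.

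**Figure D3:**
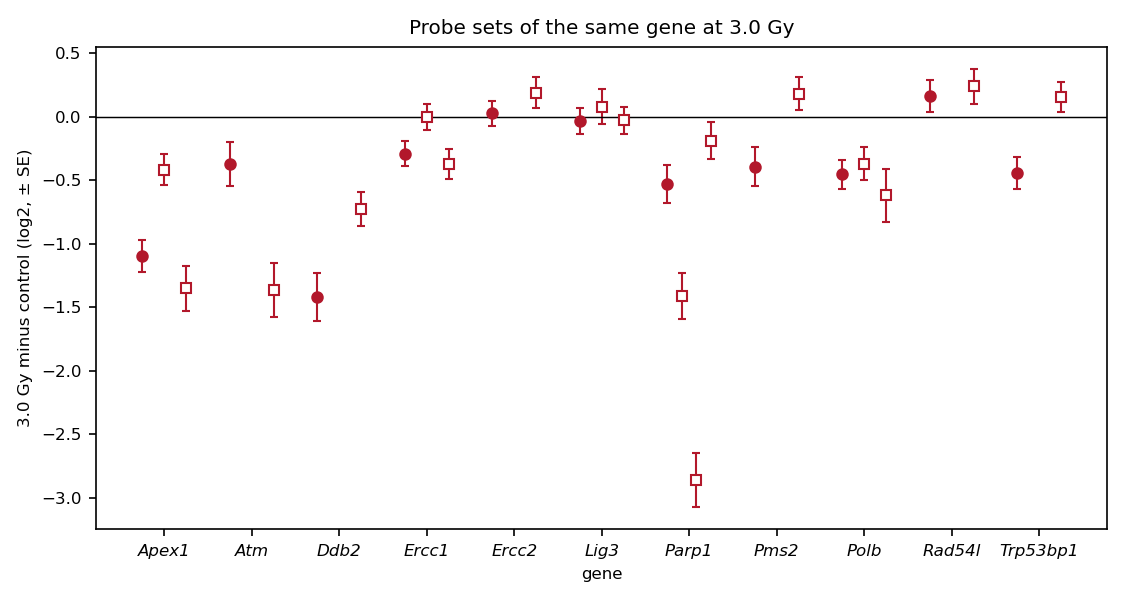
Difference at 3.0 Gy from control in log2 (± SE) for each tested probe set of the repair genes that have more than 1; the filled circle is the set that stands for the gene and open squares are the others. Parp1 ranges from -0.19 to -2.86 and Atm from -0.37 to -1.36, while the sets of Polb, Lig3 and Rad54l lie close together.

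The spread between mice was of similar size for these genes and for all genes. From the controls to the highest dose, the median SD of the tested repair genes was 0.20, 0.14, 0.22 and 0.17, beside 0.21, 0.16, 0.19 and 0.19 over all genes.

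Other genes of the same pathways, a second list of 94 of which 71 were tested, held 27 that fell and 6 that rose at 3.0 Gy, with a median of -0.21, where 29.2% of all genes fell and 20% rose. At 0.5 Gy limma called 3 that fell and 0 that rose (15 and 0 at an unadjusted p under 0.05), and at 1.0 Gy 6 fell and 1 rose. Over all genes 5% fell and 5.24% rose at 0.5 Gy, and 8.49% fell and 8.8% rose at 1.0 Gy. At 3.0 Gy, damage sensing held 9 that fell and 1 that rose of 18. Tipin, part of the fork protection complex, fell at every dose, by -0.90, -0.97 and -1.62 (adjusted p = 9.77e-07 at 3.0 Gy), Smc3, a cohesin subunit, by -1.34 at 3.0 Gy, and Rnf8, a ubiquitin ligase at breaks, by -0.80. Nucleotide excision repair held 10 that fell and 1 that rose of 17, led by Rpa1, which coats single-stranded DNA (-1.92, adjusted p = 3.72e-07), Cdk7, the kinase of TFIIH (-1.24), and Rad23b, the partner of XPC (-0.94). In base excision repair 5 of 12 fell, among them Parp3 (-1.58, adjusted p = 2.19e-06), Mbd4 (-1.01) and the glycosylase gene Mpg (-0.54).

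In homologous recombination 3 rose and 2 fell of 17, with a median of 0.05. Rad51b, a recombination mediator, rose by 0.73 ± 0.13 (adjusted p = 0.000103) and Fanci, the partner of FANCD2, by 0.50, while Fancf, a subunit of the Fanconi core complex, fell by 0.55. Whether the pathways differ from each other was not tested. In end joining 1 rose and 1 fell of 5: Aplf, which binds poly(ADP-ribose), by 0.57 and Poll, a gap-filling polymerase, by -0.45. Neither of the 2 tested mismatch repair genes was called.

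p53 is the transcription factor that ATM and CHEK2 activate, and its target genes served as a reference for the damage response. Ddb2, which fell, was counted with the repair genes and was not on this list. Of 12 tested targets 3, 7 and 5 rose over the 3 doses and 0 fell in limma (also 0 at an unadjusted p under 0.05), with medians of 0.36, 0.57 and 0.28. Over all genes 5.24%, 8.8% and 20% rose. With the 18S level as a covariate limma called 0, 0 and 6 targets (3, 5 and 6 were higher at an unadjusted p under 0.05). That fit called 4.39%, 4.77% and 49.4% of all genes. At 3.0 Gy Phlda3 rose by 1.36, the cell cycle inhibitor gene Cdkn1a by 1.03, Ccng1 by 0.76 and Dglucy by 0.66.

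The lists of cell markers differed with dose as well. At 3.0 Gy the medians for B cells, red cells, platelets and neutrophils were larger in size than that of any repair list. The largest repair median was that of mismatch repair (-0.84, 2 tested genes). B cell markers fell in 8 of 9 (median -2.56), with mean levels over the list of 7.17 to 7.87 in controls and 4.70 to 5.91 at 3.0 Gy. T cell markers fell in 6 of 9 (median -0.64), from 6.97 to 7.68 down to 6.04 to 6.26. Monocyte markers fell in 3 of 6 (median -0.40; 7.44 to 7.67 in controls and 6.82 to 7.45 at 3.0 Gy) and NK cell markers in 2 of 7 (median -0.0045; 5.92 to 6.45 and 5.80 to 6.00). Neutrophil markers rose in 6 of 8 (median 0.96; 6.99 to 7.64 and 7.70 to 8.65) and platelet markers in 9 of 9 (median 1.89; 8.86 to 9.43 and 10.5 to 11.3). Red cell markers fell in 5 of 7 and rose in 1 (median -2.20; 8.51 to 9.46 and 7.43 to 7.78), and of 7 markers of dividing cells 2 rose and 1 fell (median 0.17).

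At the lower doses the B and T cell lists moved less than at 3.0 Gy. B cell markers fell in 1 of 9 at each dose (medians -0.32 and -0.40) and T cell markers in 2 and 3 of 9 (medians -0.10 and -0.23). Platelet markers rose in 9 of 9 at both doses (medians 1.02 and 1.42), and red cell markers fell in 3 and 4 of 7 (medians -0.62 and -1.48). NK cell markers fell in 0 and 1 of 7 (medians 0.05 and 0.16) and neutrophil markers in 0 and 1 of 8 (medians 0.21 and 0.36). Monocyte markers fell in 0 of 6 at both doses (medians -0.30 and 0.0063). No NK cell, neutrophil or monocyte marker was called higher at either dose. Between 3.0 and 1.0 Gy, 8 of 9 B cell and 6 of 9 T cell markers fell, where 22.7% of all genes fell and 15.9% rose. In that comparison 1 of 7 NK cell and 2 of 6 monocyte markers fell, and 3 of 8 neutrophil markers rose. Of 9 platelet markers 2 rose, and of 7 red cell markers 3 fell and 1 rose. Apex1, Atr, Msh6, Rad50, Ercc3, Prkdc, Trp53bp1 and Ddb2 were called lower in the same comparison. The platelet and red cell lists changed from 0.5 Gy on, as did Chek2, Xpa and, with its further step at 3.0 Gy, Ddb2. The part of these shifts in the repair gene results was not tested.

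**Figure D4:**
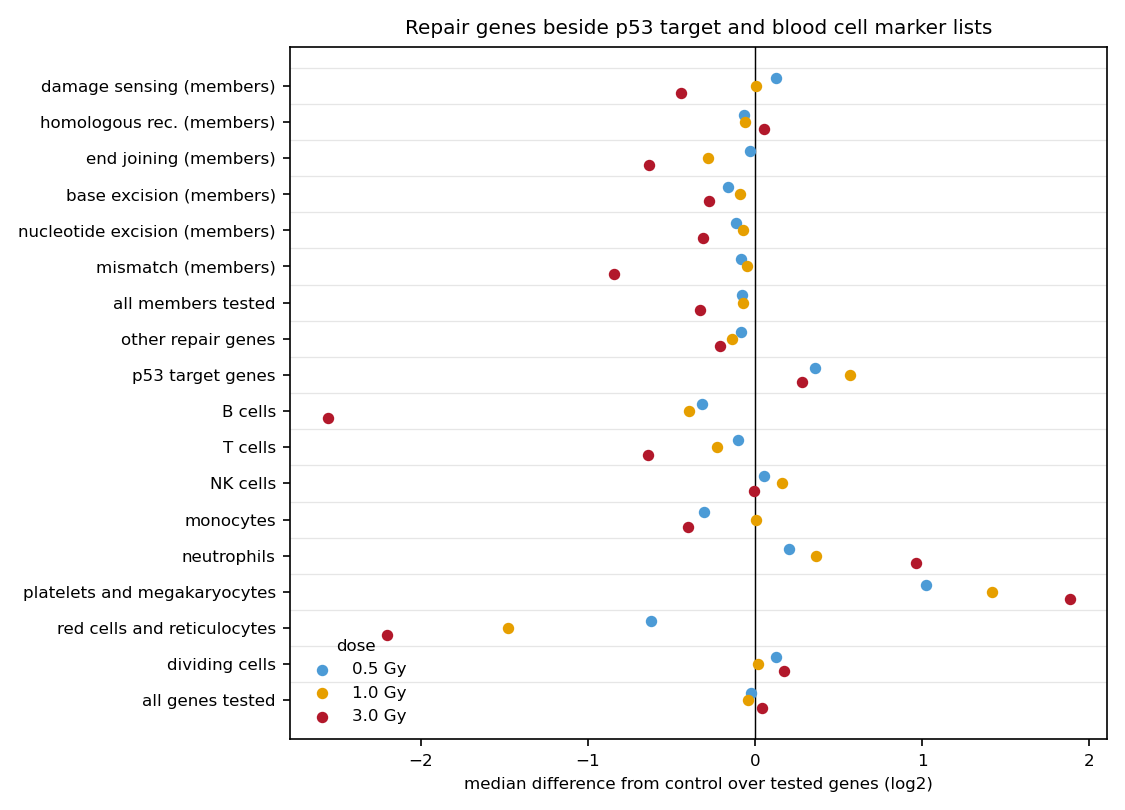
Median log2 difference from control over the tested genes of each list (rows) at each dose (colours), for the repair pathways, the other repair genes, p53 targets, blood cell markers and all genes tested. The repair lists lie between -0.84 and 0.05 at 3.0 Gy, while B cell markers reach -2.56, red cell markers -2.20 and platelet markers 1.89.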

How the data were processed

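Whole blood of 17 mice was hybridised to 1 Affymetrix array each. The authors deposited log2 values of 45101 probe sets, made with RMA under R 3.3.2 per the submitters' processing notes, its software and filters being not given in the sources used here. The method equalises the arrays' distributions and pulls dim probe sets towards background, so small signals understate change. Gene names came from the platform annotation: 34945 probe sets had 1 symbol, 932 several and 64 are controls. A gene was tested if its set exceeded its array's 50th percentile in at least 4 arrays (12696 genes). Differences came from limma 3.58.1 (lmFit, eBayes) in R 4.3.3 with 4 group means over all 17 arrays, no covariates and Benjamini-Hochberg adjustment, and were tested on simulated data. Intervals are 95% and unadjusted. The p-values set each difference of group means against the spread between these mice, pooled over the 4 groups.

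The genes and lists were chosen with earlier results of these data known. All 38 genes are named; of other genes of a pathway at most 3, and of p53 targets at most 4, by the smallest p at 3.0 Gy. Genes of the further lists that were not matched are not analysed here. The number of arrays limits the precision. Alternatives tried were other filters, probe set rules, normalizations, an 18S covariate, a replicate block, robust eBayes, the compared groups alone, and leaving out each array.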

Additional observations from a re-analysis of the deposited data

Results flagged for a closer look

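In 9 of 148 combinations of a gene and a group, 1 array stood apart from the rest of its group by Dixon's test; chance alone gives about 1 in 20. In the controls these were replicate 1 for Xrcc6 (4.10, next 3.78), replicate 5 for Xrcc3 (4.83, next 4.48) and, among the dim genes that were not tested, replicate 2 for Nbn (3.41) and replicate 4 for Xrcc5 (3.48). At 0.5 Gy replicate 2 was high for both Rad50 (5.04, next 4.31) and Xpc (5.39, next 4.66). At 1.0 Gy replicate 3 was low for Tdp1 (2.86, next 3.21). At 3.0 Gy replicate 1 was low for Polb (5.36, next 5.68) and replicate 4 was low for Xpa (3.52, next 3.82). Leaving out the array that stood apart ended the call of Xrcc6 at 1.0 Gy (adjusted p = 0.0576) and of Tdp1 at 1.0 Gy (adjusted p = 0.107), and ended no call of Polb, Xpa, Xrcc3 or Rad50.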

How the results depend on the processing

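Of 25 calls of a repair gene at a dose, 9 held in every setting in which the gene was tested, all at 3.0 Gy: Atr, Chek2, Xrcc6, Prkdc, Apex1, Ddb2, Xpa, Ercc3 and Msh6. Settings whose filter dropped the gene are not counted. Msh6 was thus tested in 22 settings, Atr, Xrcc6 and Xpa in 25 and Ercc3 in 26, against 27 for Chek2 and Prkdc. The other 16 were lost in at least 1 setting, and 4 of 68 uncalled pairs were called in at least 1. Direction reversed for Trp53bp1 and Pms2 at 3.0 Gy, by a second probe set (0.15 and 0.18). The number of all genes called also moved with the setting. At 3.0 Gy it was 6237 in the main fit, 7012 with repeated quantile normalization and 6072 with median centring. Beyond the shares given above, no share of all genes is given for the settings that follow. Their counts therefore describe the setting as well as the repair genes. With the 18S level as a covariate the counts were 0 higher and 0 lower at 0.5 and 1.0 Gy, and 0 between 3.0 and either lower dose. Genes higher at 0.5 Gy also became 0 with repeated quantile normalization or the compared groups alone, and genes lower there 1 with no filter, the 75th percentile filter, the mean of probe sets or median centring. Lower at 1.0 Gy became 1 with the 75th percentile filter and 3 with the mean of probe sets. At 3.0 Gy, the 75th percentile filter and the mean of probe sets each gave 1 higher and 8 lower (slope 1 and 8 likewise), and no filter gave 4 higher and 4 rising by slope. The 75th percentile filter, which tests fewer genes, left 7 by the test of any dose, 7 between 3.0 and 1.0 Gy and 5 between 3.0 and 0.5 Gy.

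Leaving out 1 array gave 0 to 1 higher and 1 to 2 lower at 0.5 Gy, 1 higher and 2 to 5 lower at 1.0 Gy, 1 to 2 higher and 13 to 15 lower at 3.0 Gy, 13 to 17 by the test of any dose, 1 to 2 rising and 12 to 15 falling by slope, 7 to 15 between 3.0 and 1.0 Gy, 7 to 12 between 3.0 and 0.5 Gy and 0 between 1.0 and 0.5 Gy. Lower at 1.0 Gy became 2 without control replicate 1 or 1.0 Gy replicate 4.

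The replicate block gave 2 higher and 16 lower at 3.0 Gy, 1 and 5 at 1.0 Gy and 1 and 2 at 0.5 Gy. It moved no count of repair genes by over 1.5 times. The labels do not say whether the numbers pair the mice. Deviations of same-numbered arrays correlated at -0.454 to 0.495 over 24 pairs, with a median of 0.067 against -0.025 for other numbers. Of 16 arrays, 7 were closest to their own number. Whether that exceeds chance was not tested.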

Other observations

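Neighbouring genes that share a promoter window with listed genes were looked at after their values were seen. Hscb, an iron-sulphur cluster co-chaperone gene whose bounds overlap the Chek2 promoter window, fell at every dose, by -0.93, -1.70 and -1.14 (adjusted p = 0.000428, 2.37e-07 and 4.97e-06 in limma), while Chek2 rose at every dose. Osgep, a tRNA modification gene next to Apex1 whose bounds overlap the Apex1 window, differed by -0.40 (adjusted p = 0.141), -0.51 (adjusted p = 0.0347) and -1.69 ± 0.16 (adjusted p = 1.39e-07), the same direction as Apex1 at 3.0 Gy.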
